A study of Mus musculus with 17 samples.

Results

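The 7 genes that encode the antigens used to sort mouse skeletal stem cells (SSC) and bone, cartilage and stromal progenitors (BCSP) were followed on 17 Affymetrix mouse whole-genome arrays of RNA from those sorted cells. The genes are Itgav (CD51), Eng (CD105), Cd200, Thy1 (CD90), Enpep (6C3), Ptprc (CD45) and Tek (Tie2). Their probe sets were chosen as all those that the platform annotation assigns to 1 of these symbols alone, which gave 13 of 34945 probe sets with a single symbol, 5 for Itgav, 2 each for Eng and Ptprc and 1 for each of the other 4 genes. On the arrays 12 of the 13 lay high enough to be tested, so that all 7 genes were among the 14520 genes tested. Probe set 1432678_at of Itgav was at the floor on 15 of the 17 arrays.

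All cells came from female C57BL/6 mice. Callus BCSPs were hybridized on 6 arrays and callus SSCs on 6, BCSPs of uninjured bone on 2 and SSCs of uninjured bone on 3. By ovary state the callus arrays comprised 2 of ovariectomized mice given 17 beta-estradiol (OVX+E2), 2 of ovariectomized mice (OVX), 4 of sham-operated mice, 2 whose labels conflict (OVX in the title, sham with fracture in the treatment tag) and 2 whose labels state no surgery, and the uninjured arrays comprised 2 of OVX and 3 of sham mice. Ovaries were removed, or sham surgery done, at an age of 8 weeks, a femoral fracture followed after another 6 weeks, callus was harvested on day 7, and E2 came from a 0.18 mg pellet. The labels do not say how many mice gave the RNA of an array or whether arrays came from separate mice, so that all p-values measure the spread between these arrays only.

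The antigens act as a series of gates. By the study's sort, cells without CD45 (all leukocytes) and Ter119 (erythroid cells) were taken on to a gate without Tie2 and with CD51, then to one without CD90 and 6C3, and were split by CD105 into BCSPs, which carry it, and SSCs, which do not; an antibody to CD200 was in the stain. Ter119 is not represented by any of the 7 genes. CD51 is the alphaV subunit of integrins that bind vitronectin and fibronectin. CD105 is a co-receptor for BMP9 and other TGF-beta family ligands, abundant on endothelial cells and on several stromal cells. CD200 is a membrane glycoprotein whose receptor restrains myeloid cells. Thy1 is a small lipid-anchored glycoprotein of T cells, neurons and stromal cells, 6C3 is the aminopeptidase that trims angiotensin II and is also found on early B cells, CD45 is the receptor tyrosine phosphatase of nucleated blood cells, and Tie2 is the endothelial receptor for angiopoietins. The sort reads protein at the cell surface, whereas the arrays read RNA of the sorted cells.

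Each array is called here by its title code. The codes come in 3 forms. The two-letter codes (6 arrays, all callus) give ovary state (E for OVX+E2, O for OVX, S for sham) and population (B for BCSP, S for SSC), as in EB, ES, OB, OS, SB and SS. The three-letter codes (7 arrays) add I for callus or U for uninjured bone between these letters, as in SIB, SIS, OUB, OUS and SUS and in the arrays of conflicting labels, OIB and OIS. The population-first codes (4 arrays) are BU and SU for uninjured sham bone and BI and SI for callus of unstated surgery. Values are log2 signals after quantile normalization, with a floor at 5.95. The deposited signals had medians of 7.67 to 7.88 per array. The number of arrays, and not a read depth, limits the precision, and probe sets differ in how strongly they bind, so the levels of different probe sets are not set against each other.

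Markers of the cells that the gate should hold and should leave out were read first. Skeletal stromal genes, 13 measured of 14 listed and including collagen I, Prrx1 and Pdgfra, had mean log2 signals of 12.06 to 13.05 on the 12 callus arrays and 8.31 to 11.39 on the 5 uninjured arrays, with the lowest means on SU (8.31) and BU (8.93). Leukocyte genes (12 measured of 12) had means of 7.79 to 11.34 on callus and 11.84 to 12.81 on uninjured arrays. Endothelial genes (13 of 13) had means of 9.69 to 11.59 on OUB, SIB and OIB and of 7.0 to 8.72 on the other 14 arrays. Erythroid genes (9 measured of 13) had means of 6.83 to 11.98 on callus and 6.96 to 11.96 on uninjured arrays. Within callus the two-letter arrays gave 6.83 to 7.11, and the others ran from 7.60 (SI) to 10.84 (OIS) and 11.98 (BI). In uninjured bone SU gave 6.96 and the other arrays 11.33 (OUB) to 11.96 (BU). Neutrophil genes (8 of 8) had means of 9.97 to 14.13 on callus and 13.84 to 14.85 on uninjured arrays. On the uninjured arrays the labelled populations therefore carried lower stromal and higher leukocyte signal than on any callus array. In RNA of a sorted pool, fewer cells of a type and less RNA per cell cannot be told apart.

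Promoter sequence is shown for Ptprc and Tek, whose signals went with those of the leukocyte or endothelial genes. Sequence is also shown for Eng, which was read beside the endothelial genes, and for Cd200, the member whose signal rose most in callus. Each is the 250 bases before an annotated start, from RefSeq (GRCm38.p6), written 5′ to 3′ on the strand of the gene. Capitals mark each match to GGAAGT or its reverse complement ACTTCC, a core bound by ETS-family factors that act in both blood and endothelial cells. Of 32851 windows of this length, 19.7% hold a match. Promoter entries were matched for 6 of the 7 genes, Thy1 being the other one.
Ptprc, chr1:138175306-138175555 (minus strand): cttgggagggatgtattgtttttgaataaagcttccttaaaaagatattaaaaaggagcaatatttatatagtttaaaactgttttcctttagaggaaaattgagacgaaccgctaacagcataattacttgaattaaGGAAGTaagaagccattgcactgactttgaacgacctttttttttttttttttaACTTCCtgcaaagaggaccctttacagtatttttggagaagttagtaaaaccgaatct
Tek, chr4:94739039-94739288 (plus strand): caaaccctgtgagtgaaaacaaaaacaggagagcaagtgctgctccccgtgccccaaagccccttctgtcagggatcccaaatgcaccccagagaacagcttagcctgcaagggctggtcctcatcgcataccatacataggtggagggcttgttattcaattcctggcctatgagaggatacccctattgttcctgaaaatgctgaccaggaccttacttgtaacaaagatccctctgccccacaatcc
Eng, chr2:32646345-32646594 (plus strand): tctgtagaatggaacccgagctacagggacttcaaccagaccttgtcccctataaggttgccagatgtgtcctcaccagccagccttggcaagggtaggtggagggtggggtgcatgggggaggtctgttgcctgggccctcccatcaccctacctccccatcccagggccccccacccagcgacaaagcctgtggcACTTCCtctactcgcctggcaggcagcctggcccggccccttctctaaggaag
Cd200, chr16:45409054-45409303 (minus strand): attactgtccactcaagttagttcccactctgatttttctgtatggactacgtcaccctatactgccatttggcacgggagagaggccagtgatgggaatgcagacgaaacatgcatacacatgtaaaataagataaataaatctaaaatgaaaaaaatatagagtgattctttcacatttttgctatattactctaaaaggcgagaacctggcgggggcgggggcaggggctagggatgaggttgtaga
The window printed for Ptprc, the farther 5′ of 2 annotated starts, holds 2 matches. The other Ptprc window overlaps it and holds 1, a site already marked in the printed window. The window of Eng holds 1, and those of Tek and Cd200 hold 0. The window of Itgav, not printed, holds 2 and that of Enpep 0. A match is a description of letters, and the lack of one says only that these letters are not in the window.

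**Figure D1:**
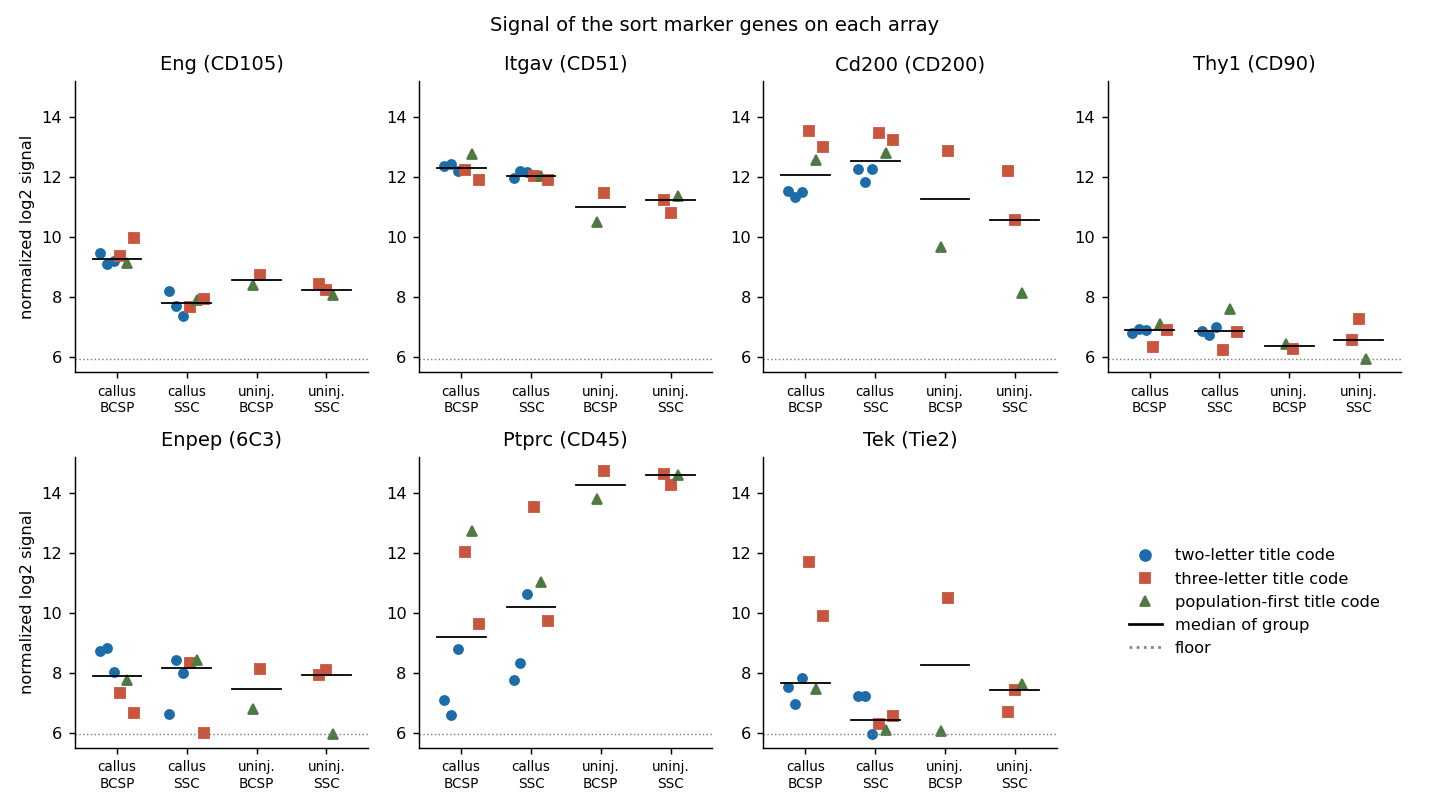
Normalized log2 signal (vertical axis) of the 7 genes, each by its probe set of highest mean, on the 17 arrays, by injury and population (horizontal axis). Points are single arrays with shape and colour by title-code form, black lines are group medians and the dotted line is the floor. Ptprc lies at 13.79 or above on all 5 uninjured arrays and Tek at 9.88 or above on 3 BCSP arrays of the three-letter form.

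Itgav, which encodes the antigen that every sorted cell should carry, was high in callus. On its probe set of highest mean (1452784_at) callus BCSPs ranged from 11.89 (SIB) to 12.78 (BI) with a median of 12.31, and callus SSCs from 11.90 (SIS) to 12.19 (OS) with a median of 12.02. The uninjured arrays gave 11.46 (OUB), 10.51 (BU), 11.25 (OUS), 10.79 (SUS) and 11.37 (SU). The means were 12.19 ± 0.26 on callus arrays (SD, n = 12) and 11.08 ± 0.41 on uninjured arrays (n = 5), and the log2 fold change in callus was 1.09 (SE 0.19; limma, adjusted p = 0.000383). This estimate compares callus with uninjured arrays within title forms, and since the 6 two-letter arrays are all callus, it rests on 6 callus and 5 uninjured arrays of the other forms.

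Further probe sets of Itgav did not all move alike. Probe set 1421198_at rose by 1.51 (SE 0.25, limma adjusted p = 0.000258) and 1432296_a_at by 0.95 (SE 0.28, adjusted p = 0.0121; 0.84 and 0.0603 without BU), whereas 1432679_at had a log2 fold change of -0.15 (SE 0.31, adjusted p = 0.741). On 1432679_at the BI array gave 9.69, the highest of the 17, and without both callus arrays of unstated surgery (an alternative added after seeing the data) the fold change was -0.72 (adjusted p = 0.0452), opposite to the other probe sets. With sham arrays alone deciding the contrast, the fold change of 1452784_at was 1.04 and its adjusted p 0.0743, a contrast that then rests on the single three-letter uninjured sham array, SUS.

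Beta subunits pair with alphaV to form the receptor at the surface. Of 5 listed, Itgb5 rose by 1.30 (SE 0.20, limma adjusted p = 0.000155) and Itgb1 by 1.03 (SE 0.17, adjusted p = 0.000199) in callus, Itgb3 had -0.06 (adjusted p = 0.898), and Itgb6 and Itgb8 were too dim to test. Between populations Itgav was nearly level, with a log2 difference, BCSP minus SSC, of 0.13 on 1452784_at (95% interval -0.21 to 0.46; limma, adjusted p = 0.793). The other 3 tested probe sets gave -0.19 to -0.05.

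Callus arrays as a group differed from uninjured arrays on much of the genome, which sets the background for all such counts. Among the 27216 probe sets tested, 38.8% (10558, of which 5402 were higher and 5156 lower in callus) passed an adjusted p of 0.05. Of the 12 tested member probe sets 7 passed, 5 higher (3 of Itgav, 1 each of Cd200 and Eng) and 2 lower (both of Ptprc). Between 5 and 7 passed when 1 array was left out. The median log2 fold change was 0.30 over the member probe sets and 0.00 over all probe sets tested.

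**Figure D2:**
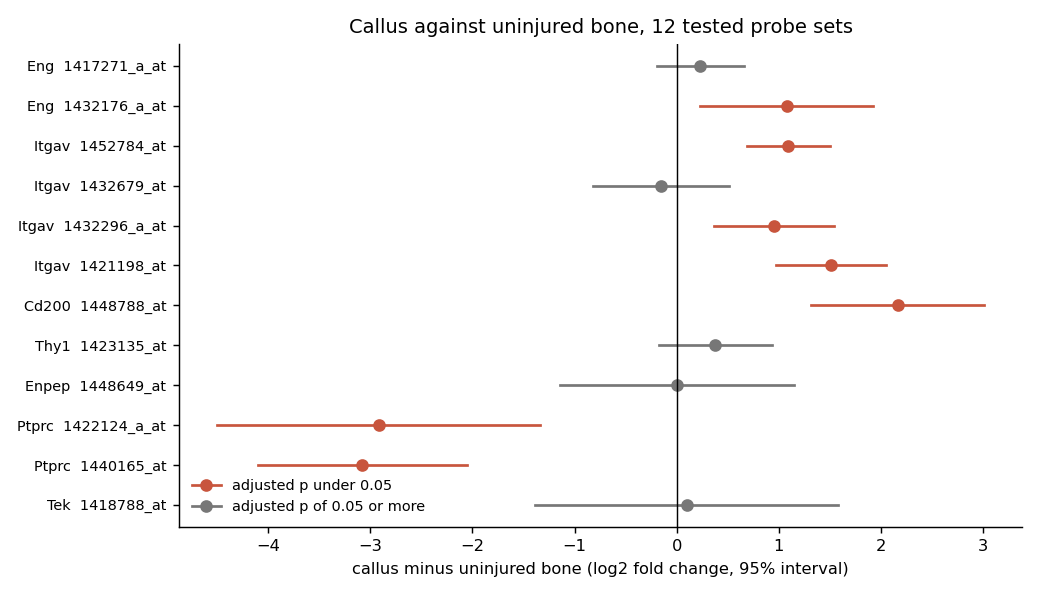
Log2 fold change, callus minus uninjured bone (horizontal axis, log2), of the 12 tested member probe sets (vertical axis), with 95% intervals from limma, in red where the adjusted p is under 0.05. Both probe sets of Ptprc lie near -3, Cd200 lies at 2.17, and the probe sets of Itgav and of Eng differ among themselves.

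Eng, the gene of the antigen that separates the populations, was higher in BCSPs in callus. On 1417271_a_at the callus BCSP arrays gave 9.19 (EB), 9.10 (OB), 9.48 (SB), 9.97 (SIB), 9.37 (OIB) and 9.13 (BI). Their SSC partners gave 7.36 (ES), 7.69 (OS), 8.21 (SS), 7.95 (SIS), 7.67 (OIS) and 7.9 (SI). The means were 9.37 ± 0.33 in BCSPs and 7.80 ± 0.29 in SSCs (SD, n = 6 each). In uninjured bone the values lay close together, at 8.75 (OUB) and 8.40 (BU) in BCSPs and 8.42 (OUS), 8.08 (SU) and 8.25 (SUS) in SSCs.

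Over the 8 pairs of arrays that share ovary state, injury and title form, Eng was higher in the BCSP array in 8, by a mean of 1.26 ± 0.64 (SD). The exact sign-flip test gave p = 0.0078 two-sided, the smallest that 8 pairs allow, unadjusted and 1 of 13 such tests on the member probe sets. In the fit over all probe sets the log2 difference was 1.26 (SE 0.22; unadjusted p = 0.000104, limma adjusted p = 0.402). At that threshold 0 of 27216 probe sets (0%) were called between BCSPs and SSCs, members included, with a lowest adjusted p of 0.356, while 2631 were below 0.05 before adjustment. The populations were divided by CD105 protein, so Eng is the gene of the criterion that chose them, and the part of the gate in this RNA difference was not tested.

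The pair difference of Eng varied with injury. It was 1.23 to 2.02 in the 6 callus pairs and 0.33 (OUB minus OUS) and 0.32 (BU minus SU) in the 2 uninjured pairs. The term for the population difference in callus minus that in uninjured bone was 1.21 (SE 0.35; unadjusted p = 0.00373), which did not pass over all probe sets (limma, adjusted p = 0.998). For that term 0 of 27216 probe sets (0%) passed, with 1024 at an unadjusted p under 0.05.

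The second probe set of Eng, 1432176_a_at, was higher in BCSPs in 7 of 8 pairs (mean 1.74 ± 1.33; exact sign-flip test, p = 0.0156). The exception was the callus pair of unstated surgery, at 8.92 in BI and 8.95 in SI, where SI stood above the 6.49 to 7.17 of the other callus SSC arrays. Its callus pairs differed by -0.02 to 3.94, a range that held both uninjured pairs, at 1.06 (OUB minus OUS) and 0.24 (BU minus SU). The population difference in callus minus that in uninjured bone was 1.62 (SE 0.70, unadjusted p = 0.0353, limma adjusted p = 0.998). This probe set was called higher in callus (log2 fold change 1.08, SE 0.40; limma, adjusted p = 0.0421), while 1417271_a_at had 0.23 (adjusted p = 0.396). The call was lost when any 1 of 12 arrays was left out, the fold change was 0.60 without SI (adjusted p = 0.127), and with sham arrays alone it was -0.11.

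**Figure D3:**
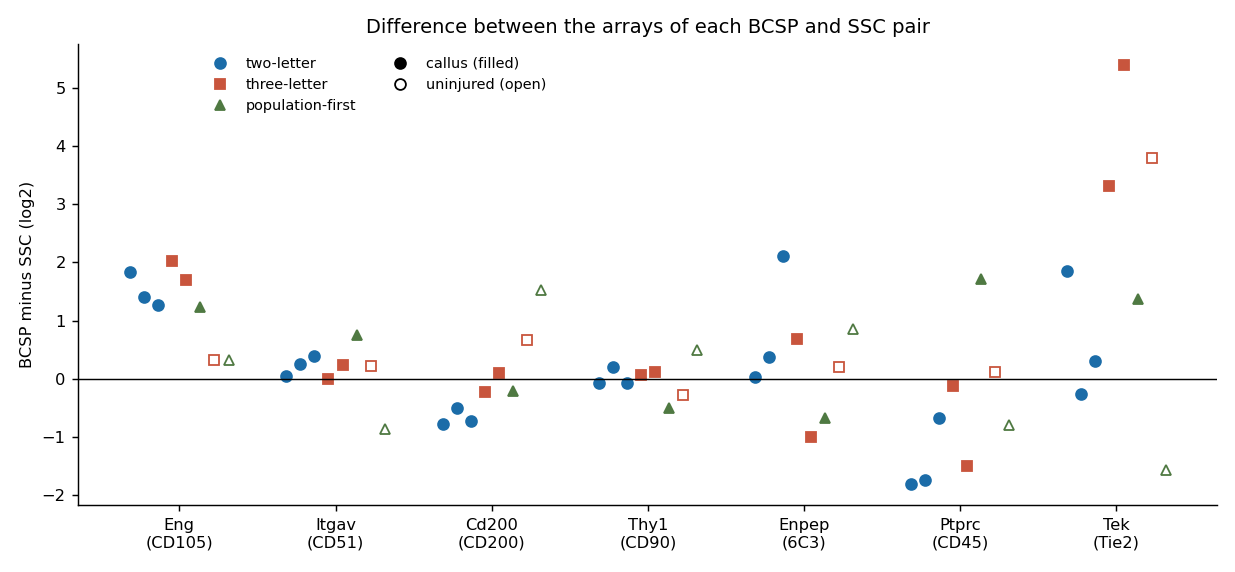
Log2 signal of the BCSP array minus that of the SSC array (vertical axis) in each of 8 pairs, for the probe set of highest mean of each gene (horizontal axis), with colour and shape by title-code form, filled for callus and open for uninjured bone. Eng is above 0 in all 8 pairs, and Tek exceeds 3 in the 3 three-letter pairs.

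Tek, the gene of the Tie2 antigen that both populations should lack, was high on 3 BCSP arrays. It stood at 11.70 (OIB), 9.88 (SIB) and 10.48 (OUB), the 3 BCSP arrays of the three-letter form. On the other BCSP arrays it was 7.81 (EB), 6.95 (OB), 7.53 (SB), 7.47 (BI) and 6.06 (BU), and on the 9 SSC arrays 5.97 to 7.62 with a median of 6.69. The pair differences were 5.40, 3.32 and 3.79 in the three-letter pairs, and 1.85, -0.26, 0.31, 1.38 and -1.57 in the others. The mean over pairs was 1.78 ± 2.31 (exact sign-flip test, p = 0.0703), and limma gave a log2 difference of 1.78 (SE 0.66, adjusted p = 0.451).

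Endothelial genes were high on the same 3 arrays. Pecam1, the CD31 adhesion molecule of endothelium, gave 13.62 on OIB, 12.41 on SIB and 12.07 on OUB, and Cdh5, the cadherin of endothelial junctions, named after its values were seen, gave 12.73, 12.33 and 10.12. On their SSC partners Pecam1 gave 8.79 (OIS), 9.0 (SIS) and 9.23 (OUS), and Cdh5 6.63, 6.40 and 7.42. The mean of the 13 endothelial genes was 11.59, 10.62 and 9.69 on these BCSP arrays against 7.0, 7.04 and 7.44 on the SSC arrays. In the two-letter pairs the same mean was 8.32 (EB), 7.98 (OB) and 8.72 (SB) in BCSPs against 7.53 (ES), 7.17 (OS) and 7.40 (SS) in SSCs.

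By pair, the mean log2 difference of the 13 endothelial genes, BCSP minus SSC, ran from 0.13 (BU and SU, 9 genes higher) to 4.59 (OIB and OIS, 13 higher). Averaged over the 8 pairs, each of the 13 had a positive difference, with a median of 1.93. The median over all probe sets was -0.01, and 0 of 13 were called. Pecam1 had 2.44 (SE 0.35, limma adjusted p = 0.356), Tie1, the relative and partner of Tie2, 2.61 (SE 0.51, adjusted p = 0.402), and Egfl7, a secreted endothelial factor, 1.27 (SE 0.23, adjusted p = 0.402). Tie1 is counted again among the 5 ligands and partners of Tie2. In that list Ptprb, the phosphatase that dampens Tie2, had 2.63 (SE 0.63), and the ligand Angpt2 had 1.13 (SE 0.33), with 0 of the 5 called. In callus against uninjured bone 0 of these 5 and 0 of the 13 endothelial genes passed, and Tek had a log2 fold change of 0.10 (SE 0.70; limma, adjusted p = 0.929), which was -0.70 without BU and 1.0 without OUB.

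Since Eng is itself transcribed in endothelium, its values were read beside these genes. In the two-letter pairs, where Tek differed by -0.26 to 1.85, Eng on 1417271_a_at differed by 1.27 to 1.83, and in the three-letter callus pairs, where Tek differed by 3.32 and 5.40, Eng differed by 2.02 and 1.70. In the OVX uninjured pair Tek differed by 3.79 and Eng on this probe set by 0.33. In the population-first pairs Tek differed by 1.38 (BI minus SI) and -1.57 (BU minus SU), and Eng by 1.23 and 0.32. On 1432176_a_at the difference of Eng was 1.82 to 1.99 in the two-letter pairs and 3.04 and 3.94 in the three-letter callus pairs. It was 1.06 in the OVX uninjured pair, and -0.02 (BI minus SI) and 0.24 (BU minus SU) in the population-first pairs. The part of endothelial RNA in the Eng signal was not tested.

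Eng acts with type I and type II receptors of the BMP and TGF-beta families and with Smad1, Smad5 and Smad9 to induce Id1 and Id3. Of 15 such genes 14 were tested and 0 were called between populations, where Acvrl1, the type I receptor for BMP9, had a log2 difference of 0.61 (SE 0.16; limma, adjusted p = 0.410), Bmpr1a -0.35 (SE 0.15, adjusted p = 0.495) and Acvr2b 0.42 (SE 0.18, adjusted p = 0.505). In callus 6 of the 14 rose and 2 fell, against 38.8% of all probe sets called, with a median log2 fold change of 0.46 against 0.00 over all probe sets. Id3, a target of BMP signals that blocks basic helix-loop-helix factors, rose by 2.29 (SE 0.29, adjusted p = 2.62e-05), Id1 by 1.84 (SE 0.35, adjusted p = 0.00064) and Smad1, which carries the BMP signal to the nucleus, by 1.60 (SE 0.27, adjusted p = 0.000259). Tgfbr2, the type II TGF-beta receptor, rose by 0.80 (SE 0.20, adjusted p = 0.0044). The 2 that fell, named after their values were seen, were Acvrl1 (-1.11, adjusted p = 0.00793) and Tgfbr1, the type I TGF-beta receptor (-0.90, adjusted p = 0.0259).

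Cd200 was higher in callus, and its values spread most widely among the uninjured arrays. Callus BCSPs gave 11.50 (EB), 11.33 (OB), 11.55 (SB), 13.00 (SIB), 13.55 (OIB) and 12.58 (BI), and callus SSCs 12.28 (ES), 11.82 (OS), 12.27 (SS), 13.23 (SIS), 13.46 (OIS) and 12.80 (SI). The uninjured BCSPs gave 12.87 (OUB) and 9.67 (BU), and the uninjured SSCs 12.19 (OUS), 10.56 (SUS) and 8.15 (SU). The groups overlapped, because both OVX uninjured arrays lay among the callus arrays. Within the three-letter form callus gave 13.00 to 13.55 and uninjured bone 10.56 to 12.87, and within the population-first form 12.58 and 12.80 against 9.67 and 8.15. The log2 fold change in callus was 2.17 (SE 0.40; limma, adjusted p = 0.000546), and between 1.77 and 2.62 without any 1 array.

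Between populations Cd200 gave a log2 difference of -0.02 (95% interval -0.53 to 0.49; limma, adjusted p = 0.984). The SSC array was the higher in 5 of 6 callus pairs, by 0.22 to 0.78, and the BCSP array in both uninjured pairs, by 0.67 and 1.52. The difference of these differences, callus minus uninjured, was -1.67 (SE 0.70; unadjusted p = 0.031), which did not pass over all probe sets (limma, adjusted p = 0.998) and was -0.76 without OUB and -2.46 without BU. Of its 4 receptor genes, 1 was tested: Cd200r1, the inhibitory receptor on myeloid cells, had -1.48 (SE 0.34, adjusted p = 0.00282) in callus against uninjured bone and -0.71 (SE 0.20, adjusted p = 0.410) in BCSPs against SSCs. Cd200r4 was at the floor on all 17 arrays.

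The pattern of Cd200 over the arrays was closest to those of Frzb, a secreted Wnt inhibitor (Pearson r = 0.975 over 17 arrays), Car8 (0.962), Ptch1, the hedgehog receptor (0.959), and Cpe, a carboxypeptidase (0.957), among 14503 other genes. All 17 arrays share their normalization, and these values describe likeness only.

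Thy1, whose product marks cells that the gate leaves out, stayed near the floor. Its probe set gave 6.33 to 7.10 on callus BCSP arrays (median 6.91), 6.22 to 7.60 on callus SSC arrays (median 6.86), 6.27 (OUB) and 6.44 (BU) on uninjured BCSP arrays, and 6.56 (OUS), 7.26 (SUS) and the floor (SU) on uninjured SSC arrays. The whole range over 17 arrays was 1.65. The log2 difference between BCSPs and SSCs was -0.01 (95% interval -0.32 to 0.30; limma, adjusted p = 0.991), and that between callus and uninjured bone was 0.38 (SE 0.26, adjusted p = 0.276).

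Enpep, the gene of the 6C3 antigen, which the gate also leaves out, ranged more widely, with no group apart. Callus BCSPs ran from 6.67 (SIB) to 8.82 (OB) with a median of 7.88, and callus SSCs from 5.98 (SIS) to 8.43 (OS and SI) with a median of 8.16. Uninjured BCSPs gave 8.13 (OUB) and 6.80 (BU), and uninjured SSCs 7.93 (OUS), 8.08 (SUS) and the floor (SU). The groups overlapped in both comparisons. The log2 difference between populations was 0.32 (95% interval -0.33 to 0.97; limma, adjusted p = 0.721), and that between callus and uninjured bone was -0.0009 (95% interval -1.15 to 1.15; adjusted p = 0.9995).

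Enpep acts on angiotensin peptides beside other enzymes. Of 8 listed genes of this pathway 5 were tested. In callus 3 were called higher and 0 lower, where 38.8% of all probe sets were called. Mme, the neutral endopeptidase, rose by 2.26 (SE 0.58; limma, adjusted p = 0.00616), Anpep, aminopeptidase N, by 1.74 (SE 0.26, adjusted p = 0.000113) and Agt, the angiotensin precursor, by 1.09 (SE 0.27, adjusted p = 0.00433). Between populations 0 of 5 passed, Ace, the converting enzyme, having 0.72 (SE 0.20, adjusted p = 0.410).

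Early B cells also carry 6C3 and show B cell genes beside it. The 8 measured B cell genes had means of 7.61 to 9.86 on callus arrays, the highest on BI, and 7.94 to 9.71 on uninjured arrays. Ms4a1 (CD20) fell by 2.81 in callus (SE 0.59, adjusted p = 0.0016), Igll1, a surrogate light chain, fell by 2.52 (SE 0.56, adjusted p = 0.00229), and Ebf1, a factor of B cells and of stromal cells, rose by 1.74 (SE 0.44, adjusted p = 0.00522). Enpep itself stood at 7.75 on BI.

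Ptprc, the gene of the CD45 antigen on which the sort first excludes cells, had the widest range of the 7 genes' leading probe sets, 8.17 on the log2 scale. On 1422124_a_at callus BCSPs gave 8.80 (EB), 6.58 (OB), 7.09 (SB), 9.61 (SIB), 12.02 (OIB) and 12.73 (BI), and callus SSCs 10.62 (ES), 8.31 (OS), 7.77 (SS), 9.73 (SIS), 13.53 (OIS) and 11.02 (SI). Uninjured BCSPs gave 14.74 (OUB) and 13.79 (BU), and uninjured SSCs 14.62 (OUS), 14.27 (SUS) and 14.58 (SU). Within callus the two-letter arrays were lowest, apart from ES, which lay above SIB and SIS.

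The log2 fold change of Ptprc in callus against uninjured bone was -2.92 (SE 0.74; limma, adjusted p = 0.00564) on 1422124_a_at and -3.08 (SE 0.48, adjusted p = 0.00015) on 1440165_at. Within the three-letter form 1422124_a_at gave 9.61 to 13.53 in callus and 14.27 to 14.74 in uninjured bone, and within the population-first form 12.73 and 11.02 against 13.79 and 14.58. Both probe sets passed without any 1 array, at -3.42 to -2.48 and -3.57 to -2.52. On 1440165_at BU gave 10.94, below the 12.25 to 12.57 of the other uninjured arrays.

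Genes of leukocytes fell in callus with Ptprc. Of 12 leukocyte genes, a list without Ptprc, 12 were called lower in callus, with a median log2 fold change of -2.25, where 38.8% of all probe sets were called and the median was 0.00. Cd48, a ligand on blood cells, fell by 3.76 (SE 0.62, adjusted p = 0.000223), Cd37, a tetraspanin of B cells, fell by 2.32 (SE 0.45, adjusted p = 0.000813), Cd52 fell by 2.18 (SE 0.42, adjusted p = 0.000836) and Spi1, the myeloid and B cell factor PU.1, fell by 1.71 (SE 0.33, adjusted p = 0.000879). Macrophage genes fell for 6 of 9, where Adgre1, a receptor of macrophages, fell by 2.36 (SE 0.47, adjusted p = 0.00101), Cd68, a lysosomal glycoprotein, fell by 1.68 (SE 0.38, adjusted p = 0.00271), Csf1r, the receptor of their growth factor, fell by 2.31 (SE 0.53, adjusted p = 0.00298) and Tyrobp, a signalling adaptor, fell by 2.35 (SE 0.58, adjusted p = 0.00488). Neutrophil genes fell for 2 of 8, the granule enzymes Elane (-2.34, adjusted p = 0.0122) and Mpo (-1.89, adjusted p = 0.0219), and T cell genes for 1 of 4 tested, Cd3d (-1.61, adjusted p = 0.00238). Erythroid genes were lower for 8 of 8 tested and called for 0, with Rhag at -2.47 (adjusted p = 0.111). Platelet genes fell for 1 of 5, where Ppbp fell by 2.56 (adjusted p = 0.0362).

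Skeletal stromal genes moved the other way. In callus 11 of 13 tested were called higher and 0 lower, with a median of 2.36. Postn, a matrix protein of periosteum and callus, rose by 5.18 (SE 0.61; limma, adjusted p = 1.3e-05), Alpl, the alkaline phosphatase of mineralizing cells, by 2.56 (SE 0.27, adjusted p = 3.93e-06), Sox9, the cartilage regulator, by 2.49 (SE 0.28, adjusted p = 8.72e-06) and Twist1 by 2.15 (SE 0.30, adjusted p = 6.37e-05). The 5 arrays with the highest Ptprc had the 5 lowest stromal means. The part of leukocyte RNA in the callus fold changes of Itgav and Cd200 was not tested.

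**Figure D4:**
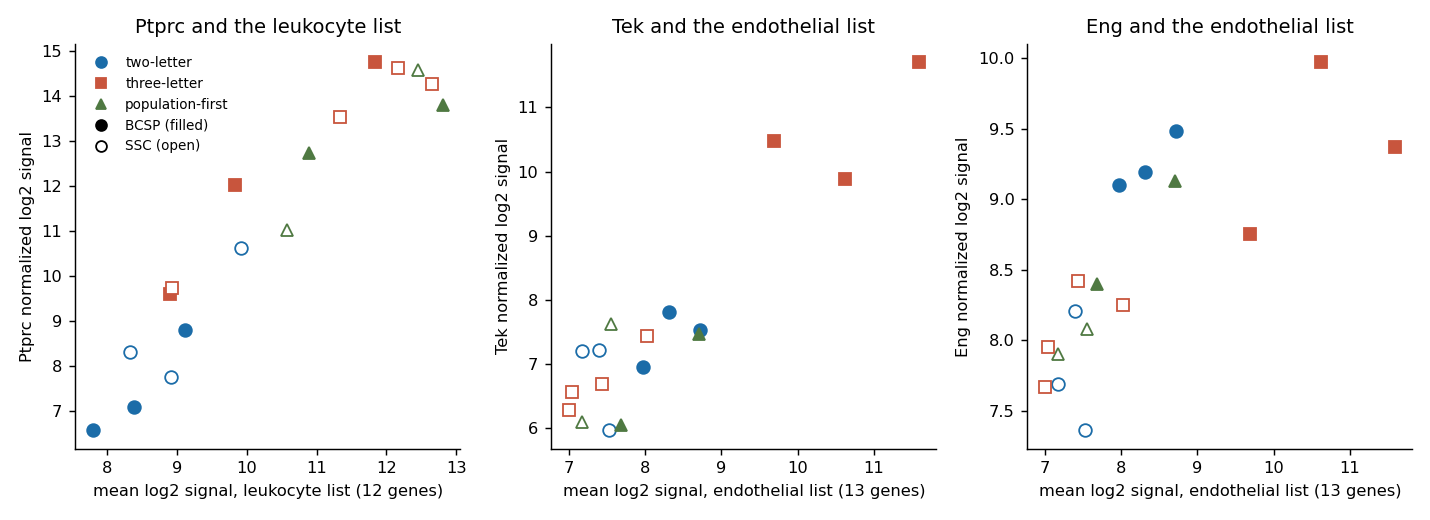
Normalized log2 signal of Ptprc, Tek and Eng (vertical axes) against the mean log2 signal of the leukocyte or endothelial list (horizontal axes) on the 17 arrays, with colour and shape by title-code form, filled for BCSP and open for SSC. The 5 uninjured arrays lie at the upper right of the Ptprc panel, and OIB, SIB and OUB stand apart from the other 14 arrays in the Tek panel.

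Between populations Ptprc gave a log2 difference of -0.60 (95% interval -1.35 to 0.15; limma, adjusted p = 0.575), with the SSC array higher in 6 of 8 pairs (exact sign-flip test, p = 0.195). The callus pair of unstated surgery went the other way by 1.71. Of the 12 leukocyte genes 11 were lower in BCSPs, with a median of -0.45, and 0 were called. By likeness over the 17 arrays the genes nearest to Ptprc were Coro1a (Pearson r = 0.983), Mcemp1 (0.983), Lcp1 (0.983) and Cd53 (0.982), of which Coro1a, Lcp1 and Cd53 are on the leukocyte list. Those nearest to Tek were Sox17 (0.942), Unc45b (0.942), Sema3g (0.94) and Tmem88 (0.939), and those nearest to Eng were Chga (0.845), Egfl7 (0.844), Sox18 (0.813) and Mmrn2 (0.798), of which Egfl7 is on the endothelial list. For Itgav they were Ttl (0.945), Pappa (0.94), S100a16 (0.928) and Lpp (0.927). For Thy1, whose signal stayed near the floor, they were Gnaz (0.851), Csnk2a2 (0.801), Tubb4a (0.794) and Gdf9 (0.772), and for Enpep they were Zeb2 (0.779), Aldh1a2 (0.76), Abi3bp (0.729) and Fhl1 (0.724).

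Surface genes of other progenitor definitions were read for comparison, 11 of 12 being tested. In callus Pdpn, podoplanin, rose by 1.94 (SE 0.29; limma, adjusted p = 9.04e-05) and Nt5e, the CD73 nucleotidase, by 1.48 (SE 0.21, adjusted p = 6.06e-05), while Cd44, the hyaluronan receptor, fell by 1.46 (SE 0.26, adjusted p = 0.000392) and Alcam, an adhesion molecule, fell by 2.19 (SE 0.42, adjusted p = 0.00081). Vcam1, an adhesion molecule named after its value was seen, fell by 0.66 (adjusted p = 0.03). This made 2 of the 11 called higher and 3 lower, where 38.8% of all probe sets were called. Between populations 0 of 11 passed, Cd34, a sialomucin of endothelial and blood progenitor cells, having 2.17 (SE 0.47, adjusted p = 0.402).

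The effect of ovary state was asked in callus of OVX and OVX+E2 mice. In OVX against sham callus 0 of 12 member probe sets were called and 0 had an unadjusted p under 0.05, with log2 fold changes of -0.45 to 0.94, and 0 of 27216 probe sets (0%) passed by limma, with 651 at an unadjusted p under 0.05. Enpep had the largest member value, 0.94 (SE 0.59), from 8.82 (OB) against 8.74 (SB) in BCSPs and 8.43 (OS) against 6.63 (SS) in SSCs, and it lay between -0.08 and 1.96 without any 1 array. With the form as a term these comparisons rest on the 6 two-letter arrays.

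In OVX+E2 against OVX callus 0 member probe sets were called by limma (1 at an unadjusted p under 0.05), where 0.022% of all probe sets (6) were. Ptprc on 1422124_a_at stood at 8.80 (EB) against 6.58 (OB) in BCSPs and 10.62 (ES) against 8.31 (OS) in SSCs, a log2 fold change of 2.27 (SE 0.68; unadjusted p = 0.00668, limma adjusted p = 1). Its other probe set, 1440165_at, gave 6.73 (EB) against 7.05 (OB) and 7.04 (ES) against 7.05 (OS), a fold change of -0.16 (SE 0.54). All of these values lay under log2 7.1976, the level that at least 2 arrays had to reach for a probe set to be tested. Beside it, 11 of 12 leukocyte genes (median 1.5), 8 of 8 neutrophil genes (median 1.68) and 9 of 9 macrophage genes (median 1.80) were higher with E2, of which 0 were called. The 2 comparisons share the OVX arrays, with opposite sign.

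In OVX against sham uninjured bone 0 member probe sets were called by limma (2 at an unadjusted p under 0.05), where 0.0845% of all probe sets (23) were. Cd200 had 1.98 (SE 0.58, limma unadjusted p = 0.00557, adjusted p = 0.389), with 12.87 (OUB) and 12.19 (OUS) against 9.67 (BU), 10.56 (SUS) and 8.15 (SU). Thy1 had -0.85 (SE 0.36, limma unadjusted p = 0.0359, adjusted p = 0.652), on values near the floor, 6.27 (OUB) and 6.56 (OUS) against 6.44 (BU), 7.26 (SUS) and the floor (SU). With the form as a term this comparison rests on SUS, the only uninjured sham array of the three-letter form. Without that term, the fold change of Cd200 was 3.10 (adjusted p = 0.0227). The skeletal stromal mean was also higher on the OVX uninjured arrays, at 11.39 and 10.87, against 8.93, 10.04 and 8.31 on the sham uninjured arrays.

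The title form was compared within sham callus, where both a three-letter and a two-letter pair exist. Of all probe sets 2.24% (609) were called, and of the 12 member probe sets 0 (3 at an unadjusted p under 0.05). Ptprc on 1422124_a_at gave 9.61 (SIB) against 7.09 (SB) and 9.73 (SIS) against 7.77 (SS). The log2 fold change was 2.24 (SE 0.68, limma adjusted p = 0.134), and it passed without BI or without SI (adjusted p = 0.0167 and 0.0169). On the other probe set of Ptprc, 1440165_at, the fold change was 0.67 (SE 0.54, limma adjusted p = 0.663). Cd200 gave 13.00 (SIB) against 11.55 (SB) and 13.23 (SIS) against 12.27 (SS), a fold change of 1.20 (SE 0.46, adjusted p = 0.247). Where OIB and OIS were taken for OVX, the fold change of Ptprc on 1422124_a_at was 3.79 (limma, adjusted p = 0.00345) and that of Cd200 was 1.57 (adjusted p = 0.0121). Enpep gave 6.67 (SIB) against 8.74 (SB) and 5.98 (SIS) against 6.63 (SS), a fold change of -1.36 (SE 0.59, adjusted p = 0.317), which was -0.33 without SB and -2.38 without SS. Of the 5 tested angiotensin genes 2 were called lower on the three-letter arrays, Anpep (-1.77, adjusted p = 0.0279) and Mme (-2.19, adjusted p = 0.0295). The sources used here do not state what the forms mark. Over the 13 endothelial genes the fold change, an average over both populations, was positive for 13 (median 0.82, 0 called). The mean of that list was 10.62 (SIB) against 8.72 (SB) in BCSPs, but 7.04 (SIS) against 7.40 (SS) in SSCs. Over the 9 macrophage genes the three-letter arrays were lower for 9 (median -1.80, 0 called). Erythroid genes were higher for 8 of 8 tested (median 1.79, 0 called) and neutrophil genes for 8 of 8 (median 0.67, 0 called). Skeletal stromal genes were lower for 11 of 13 (median -0.46), of which 3 were called, Pdgfrb (-1.75), Cxcl12 (-2.67) and Pdgfra (-2.13). Of the 11 tested surface genes of other progenitor definitions Pdpn (-2.82) and Vcam1 (-1.16) were called lower.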

How the data were processed

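RNA of sorted SSCs and BCSPs was hybridized on 17 Affymetrix mouse whole-genome arrays. The deposited table holds log2 signals for 45101 probe sets; the submitters' processing notes name MAS5 and the study's methods name dChip with Gene Expression Commons, and which of them the authors used for these values is not settled by the sources used here. All 17 columns were mapped to arrays by their labels. Of the probe sets 34945 had 1 gene symbol in the platform annotation, 932 several, 9160 none and 64 were controls.

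After quantile normalization, values under the 20th percentile (log2 5.951) were set to it as a floor, and probe sets were kept where at least 2 arrays reached the 40th percentile (log2 7.1976), which left 27216 probe sets of 14520 genes. Models were fitted with limma 3.58.1 in R 4.3.3 (lmFit, eBayes with trend) over all of these, with Benjamini-Hochberg adjustment and a threshold of 0.05. Populations, ovary states and title forms were compared in a fit with group of surgery and injury, population and title form (7 residual degrees of freedom), in which arrays of conflicting or unstated surgery formed groups of their own. Callus was compared with uninjured bone in a fit with injury, population, their interaction and title form (11 residual degrees of freedom), which has no term for surgery. The 8 BCSP and SSC pairs were formed from shared labels, and pair differences were tested by an exact two-sided sign-flip permutation test (Python 3.11.15, pandas 2.3.3). The fits were tested on simulated data.

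The members and the gene lists were chosen with earlier results of these data known. From each list the text names up to 4 genes of smallest p among those that passed in the population or injury comparison, or up to 3 otherwise, and for each member the 4 genes most alike by Pearson's r. Fold changes of a list are those of 1 probe set per gene. The alternatives covered normalization, floor, filter, probe set choice, trend, title form, surgery labels, pairing and each array left out, and leaving out both arrays of conflicting or of unstated surgery was added after seeing the data.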

Additional observations from a re-analysis of the deposited data

Results flagged for a closer look

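In 48 checks of the highest and lowest array of a group of 4 to 10 arrays, over the tested member probe sets, 4 values, on 3 arrays, stood far from the rest of their group, where chance gives about 1 in 20. In callus SSCs, Eng on 1432176_a_at was 8.95 on SI, the next array being at 7.17. In callus BCSPs, Itgav was 9.56 on BI on 1421198_at, with the next array at 11.21, and 9.69 on BI on 1432679_at, with the next at 8.02, so that the same array was the lowest on one probe set of the gene and the highest on another. In uninjured bone, Ptprc on 1440165_at was 10.94 on BU, with the next array at 12.25. SI and BI are the callus arrays whose labels state no surgery.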

How the results depend on the processing

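Of 358 fold changes recomputed under other settings, 333 kept their direction and side of the threshold, 12 reversed, 6 were no longer past it and 7 newly passed, 2 of them in the exact sign-flip tests of Eng at an unadjusted p; of 559 with 1 array left out, 504 kept both. Taking the 8 pairs as a replicate block called 0 probe sets between BCSPs and SSCs, with Eng at 1.26 (limma adjusted p = 0.403), and changed no call. The causes of the changes below were not tested.

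Counts over all probe sets moved as follows. OVX against sham callus called 7 with no filter. OVX+E2 against OVX callus called 6, and 1 with no floor, 3 with 1 probe set per gene, 0 with no title form term, 2 where the arrays of conflicting labels were taken for OVX and 1 where they were taken for sham, 1 with the unstated arrays as sham, 11 without both unstated arrays and 0 without both conflicting arrays. OVX against sham uninjured bone called 23, and 11 as deposited, 72 with no filter, 6 with no trend, 670 (1 of the members, Cd200) with no form term, 62 with the unstated arrays as sham and 63 without them. The title form comparison called 609, and 2495 (3 member probe sets, both of Ptprc and that of Cd200) with the conflicting arrays as OVX, 313 with the unstated as sham, 1782 (1 member probe set, of Ptprc) without both unstated and 397 without both conflicting arrays. With 1 probe set per gene, where fewer probe sets are tested, callus against uninjured bone called 5907 of 14504, and 3 of the 7 members. With sham arrays alone this comparison called 5970 of 27216. The interaction called 4 with no filter and 1 without both unstated arrays. With each array left out the counts ran from 4 to 74 (OVX uninjured), 0 to 11 (OVX+E2), 25 to 1779 and 0 to 1 of the members (title form), 0 to 2 (interaction) and 8002 to 12871 and 5 to 7 of the members (callus). OVX against sham uninjured bone could not be fitted without SUS.

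Fold changes near 0 reversed. Between BCSPs and SSCs, without both unstated arrays Itgav on 1421198_at gave 0.08, Thy1 0.06 and Cd200 0.01, and Thy1 gave 0.05 as deposited. In callus against uninjured bone Tek gave -0.20 with no form term, -0.11 with sham arrays alone and -0.13 without both conflicting arrays, Thy1 -0.39 with sham arrays alone and -0.10 without both unstated arrays, Eng on 1432176_a_at -0.11 with sham arrays alone, and Enpep 0.13 with no floor and 0.36 with no form term. With each array left out, the population difference ran from -0.24 to 0.09 for Cd200, -0.20 to 0.08 for Itgav on 1421198_at, -0.19 to 0.10 on 1432679_at and -0.08 to 0.06 for Thy1; the callus fold change from -0.44 to 0.35 for Enpep, -0.49 to 0.15 for Itgav on 1432679_at and -0.70 to 1.0 for Tek; and that of Enpep in OVX callus from -0.08 to 1.96. The number of arrays, 1 or 2 per population and ovary state, limits every comparison.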
